A study of Mus musculus with 8 samples.

Results

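Splicing genes were examined in macrophages of 2 genotypes. The set held 66 of the 11541 genes in the deposited table, chosen by symbol alone: every row whose name begins with Srsf and a digit, Hnrnp, Sf3a or Sf3b and a digit, Snrp, Prpf and a digit, or U2af1 or U2af2. There were 10 that encode SR proteins, 20 hnRNP proteins, 12 the factors that recognise the branch point and the 3′ splice site (Sf3a, Sf3b and U2af), 11 Snrp proteins and 13 Prpf proteins. The cells were bone marrow-derived macrophages, primary cells expanded from non-adherent mouse marrow for 4 days with the growth factor M-CSF at 25 ng/mL, and messenger RNA was sequenced in 8 libraries. Of these, 4 carried the genotype label OGFRL1_KO (here KO-labelled) and 4 the label OGFRL1_WT (wild type). Both groups had the same M-CSF treatment and no other agent is named. The sources used here do not state the strain, the age, the design of the deleted allele or whether each library came from its own animal. The p-values therefore reflect variation among these 8 libraries, and some of it may be technical.

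Splicing removes introns from the primary transcript. Small nuclear ribonucleoproteins (snRNPs), built from a short RNA, a ring of Sm proteins and particle-specific proteins, find the intron's ends and its branch point, and the Prpf proteins help to assemble and activate the machine. SR proteins bind exons and mostly favour the use of nearby splice sites, while hnRNP proteins coat the transcript and often oppose it. In macrophages both families also act on cytokine transcripts through their splicing, export and stability. Many SR and hnRNP genes limit their own output through exons that carry a premature stop codon. The counts here are per whole gene, so they hold no information on which isoform was read.

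The promoters of 4 members are shown because these genes stand for both directions of difference described further on: Srsf5, Hnrnpr and Hnrnpa2b1 were lower under the KO label, and Sf3a2 was higher. The sequences are RefSeq's on GRCm38.p6, 5′ to 3′ on the gene's strand, from 250 bases before to 50 bases after the start site. Capitals mark the letters of 4 motifs on either strand: the Ets core CCGGAAG, the GC box GGGCGG, the CCAAT box (these letters themselves) and the TATA box TATAAA. In Srsf5 a GC box and an Ets core overlap.
Srsf5: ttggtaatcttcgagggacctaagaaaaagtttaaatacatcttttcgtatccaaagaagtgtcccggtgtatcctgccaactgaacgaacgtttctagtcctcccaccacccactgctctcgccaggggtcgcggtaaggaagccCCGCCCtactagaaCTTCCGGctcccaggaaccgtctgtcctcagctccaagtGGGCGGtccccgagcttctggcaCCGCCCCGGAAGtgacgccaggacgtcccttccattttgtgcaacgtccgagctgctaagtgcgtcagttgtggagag
Hnrnpr: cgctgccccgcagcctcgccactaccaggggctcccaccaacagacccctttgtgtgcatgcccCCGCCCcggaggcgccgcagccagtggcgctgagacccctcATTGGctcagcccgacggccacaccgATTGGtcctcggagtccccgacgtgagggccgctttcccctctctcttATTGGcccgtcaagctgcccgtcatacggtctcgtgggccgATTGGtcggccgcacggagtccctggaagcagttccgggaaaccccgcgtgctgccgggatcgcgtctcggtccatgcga
Hnrnpa2b1: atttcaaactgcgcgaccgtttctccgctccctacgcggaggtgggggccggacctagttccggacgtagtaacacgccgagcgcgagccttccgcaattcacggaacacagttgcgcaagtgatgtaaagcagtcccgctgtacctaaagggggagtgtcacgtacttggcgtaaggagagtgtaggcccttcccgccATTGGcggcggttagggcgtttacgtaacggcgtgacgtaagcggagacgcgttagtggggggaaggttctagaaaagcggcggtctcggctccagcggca
Sf3a2: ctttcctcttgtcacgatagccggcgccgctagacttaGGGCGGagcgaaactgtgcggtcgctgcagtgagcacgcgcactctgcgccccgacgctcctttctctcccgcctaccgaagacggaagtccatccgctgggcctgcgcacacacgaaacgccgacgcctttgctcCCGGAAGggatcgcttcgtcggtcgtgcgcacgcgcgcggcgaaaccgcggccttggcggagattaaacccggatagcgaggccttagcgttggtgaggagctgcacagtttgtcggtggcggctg

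These windows lie at chr12:80945249-80945548 (plus strand), chr4:136310692-136310991 (plus), chr6:51469845-51470144 (minus) and chr10:80798485-80798784 (plus). A promoter was matched for 57 of the 66 members. The Ets core, a binding sequence of Ets transcription factors, was found in 20 of them (35.1%), against 20.04% of the 8842 table genes with a promoter and 8.86% of all 32851 RefSeq promoters. The GC box was found in 66.7% of member promoters and 65.9% of table genes, CCAAT in 49.1% and 39.2%, and the letters TATAAA in 10.53% and 6.74%. Matches were counted at any place in the window. Those of TATAAA in members lay at positions from -216 to 5 relative to the start site. The median GC content of the window was 60% in the members and 61% in the table genes. Srsf5 and Sf3a2, whose values lay in opposite directions, both carried an Ets core and a GC box. Hnrnpr carried CCAAT at 4 places and a GC box, and Hnrnpa2b1 only CCAAT once.

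KO-labelled libraries held 47779990 to 53567289 counts and wild-type libraries 39601341 to 61556269, and every member had at least 217 reads in every library. The targeted gene did not check the labels: Ogfrl1 was counted in all libraries, with 163 ± 23.7 CPM (the read count scaled to the size of the library) in KO-labelled and 213 ± 73.8 CPM in wild-type libraries (SD, n = 4 each). Wild-type replicates 1 to 4 had 267.3, 284.2, 165.8 and 134.9 CPM, against 145.7 to 197.3 CPM in KO-labelled libraries, so the groups overlapped. Wild-type replicates 1 and 2 stood apart from the other 6 libraries, with 6.07 and 7.03% of reads on the mitochondrial genome, a share of 1.49 to 3.17% elsewhere. Uniquely mapped reads were 76.4 and 75.8% in this pair and 83.8 to 87% elsewhere. The percentage of ribosomal RNA reads was 1.79 and 1.83 in them, 2.71 in KO-labelled replicate 2 and 4.21 to 9.10 elsewhere. All 10 macrophage markers were present, with a summed level of 21018 to 22695 CPM in KO-labelled and 18784 to 21687 CPM in wild-type libraries, so the labelled cell type held. Of the marker lists of other marrow cells, 9 of 10 neutrophil genes summed to 275 to 310 CPM in KO-labelled and 316 to 354 CPM in wild-type libraries. These ranges did not overlap, and 3 of the 9 genes had an unadjusted edgeR p under 0.05 (all genes 6.52%). At that p there were 1 of the 10 macrophage markers and 0 stromal, progenitor or endothelial genes. The 6 stromal genes present of 7 summed to 28.0 to 94.6 CPM in KO-labelled and 18.3 to 128.6 CPM in wild-type libraries. The 4 progenitor genes present of 5 summed to 9.59 to 14.6 and 11.2 to 14.9 CPM, and 3 of 3 endothelial genes to 32.5 to 36.6 and 27.4 to 34.5 CPM. Of the T and B cell and erythroid markers none was among the rows. The part of these other cells in the values below was not tested. In such bulk RNA, fewer cells of a type and less RNA per cell cannot be told apart.

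No splicing gene passed the test between the genotypes. In edgeR's quasi-likelihood test on the counts of all genes, 0 of 66 members had a Benjamini-Hochberg adjusted p under 0.05 (background 0% of 11541 genes), and the lowest adjusted p of a member was 0.404. Most of the set leaned one way: 44 members were lower and 22 higher under the KO label, 66.7% lower where 50.7% of all genes were. The median log2 fold change (KO-labelled over wild type) was -0.10 over the members and 0.00 over all genes. At an unadjusted p under 0.05 there were 13 members (19.7%), where all genes had 6.52%. These were 11 with lower values (all genes 4.51%) and 2 with higher values (all genes 2.01%). DESeq2 gave 18 members at that p (all genes 10.2%) and called none, and the authors' deposited table gave 15 (all genes 8.39%) and a lowest member false discovery rate of 0.447. The groups failed to overlap in 2 members, Hnrnpa2b1 and U2af1l4, or 3.03% where all genes had 2.64%.

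The differences were small, and their p-values depended on which libraries were kept. Only Snrpd1 reached a 1.5-fold difference in size. For 44 members (66.7%, all genes 60.3%) the whole 95% confidence interval (CI) was inside 1.5-fold in both directions. For 60 members (90.9%, all genes 90.5%) it was inside 2-fold. Wild-type replicates 1 and 2 were the 2 highest of the 8 libraries in 36 of 66 members (54.5%, all genes 35.3%) and the 2 lowest in 15 (22.7%, all genes 34.9%). In all 13 members at an unadjusted edgeR p under 0.05 they were the extremes, the 2 highest in 11 and the 2 lowest in 2. These 13 were picked by p in the same libraries, and the like count was not made over all genes at that p. A fit without wild-type replicates 1 and 2 held only 2 wild-type libraries, so its p-values are not comparable with those of all 8. In it, 0 members had an unadjusted edgeR p under 0.05 (all genes 0.996%), and the smallest member p was 0.184. Its log2 fold changes ran from -0.19 to 0.12 with a median of -0.03. Leaving out wild-type replicate 4 had the opposite effect: 37 members reached an unadjusted p under 0.05 (28 lower, 9 higher in KO-labelled libraries), where 45.1% of all genes reached that p. Of these, 34 members had an adjusted p under 0.1 (4629 of all genes), and 0 had one under 0.05. There were 25 members at an unadjusted p under 0.05 without KO-labelled replicate 2 (all genes 14.1%), 19 without wild-type replicate 3 (all genes 14.5%) and 3 without KO-labelled replicate 1 (all genes 1.94%). Without KO-labelled replicate 3 or 4, or wild-type replicate 1 or 2, there were 0 (all genes 1.16 to 1.64%).

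**Figure D1:**
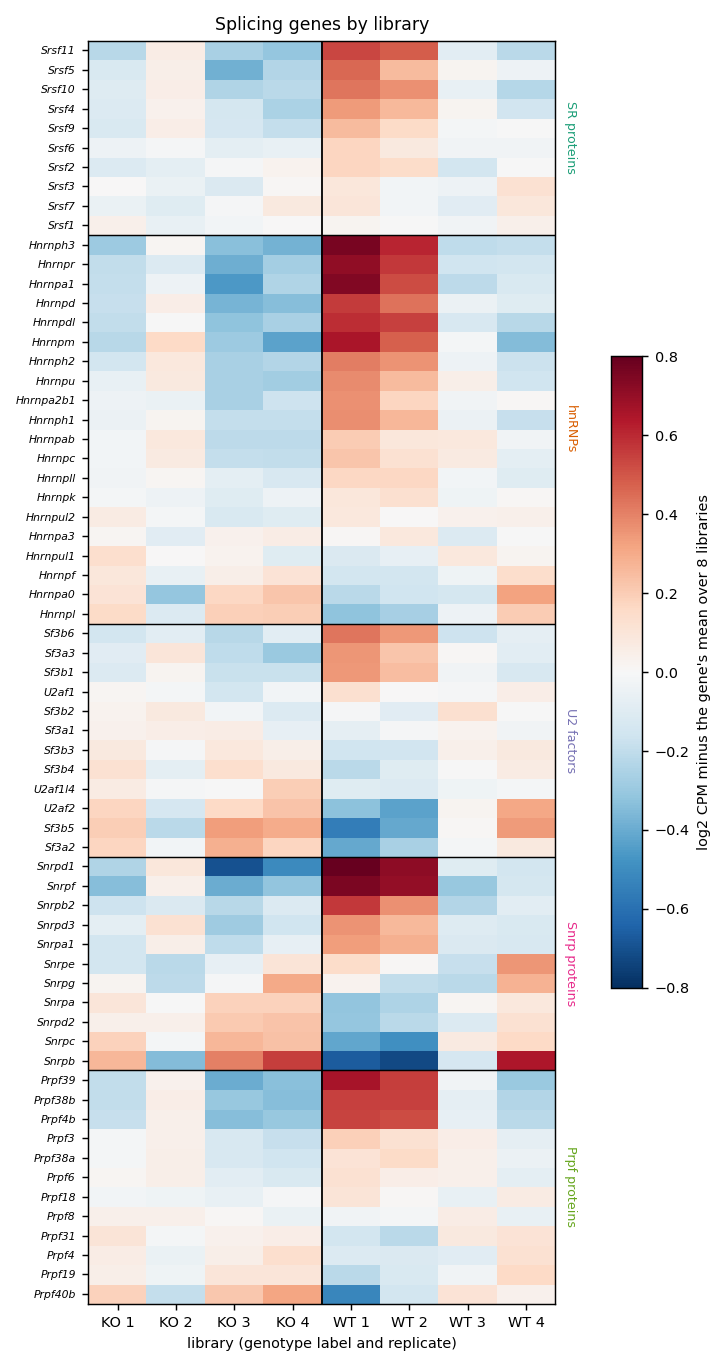
Each row is one of 65 of the splicing genes, grouped by role, and each column a library, KO-labelled on the left and wild type on the right. Colour gives log2 CPM minus the gene's mean over the 8 libraries, and wild-type replicates 1 and 2 are the 2 highest libraries in more genes (36 of all 66) than they are the 2 lowest (15 of 66).

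**Figure D2:**
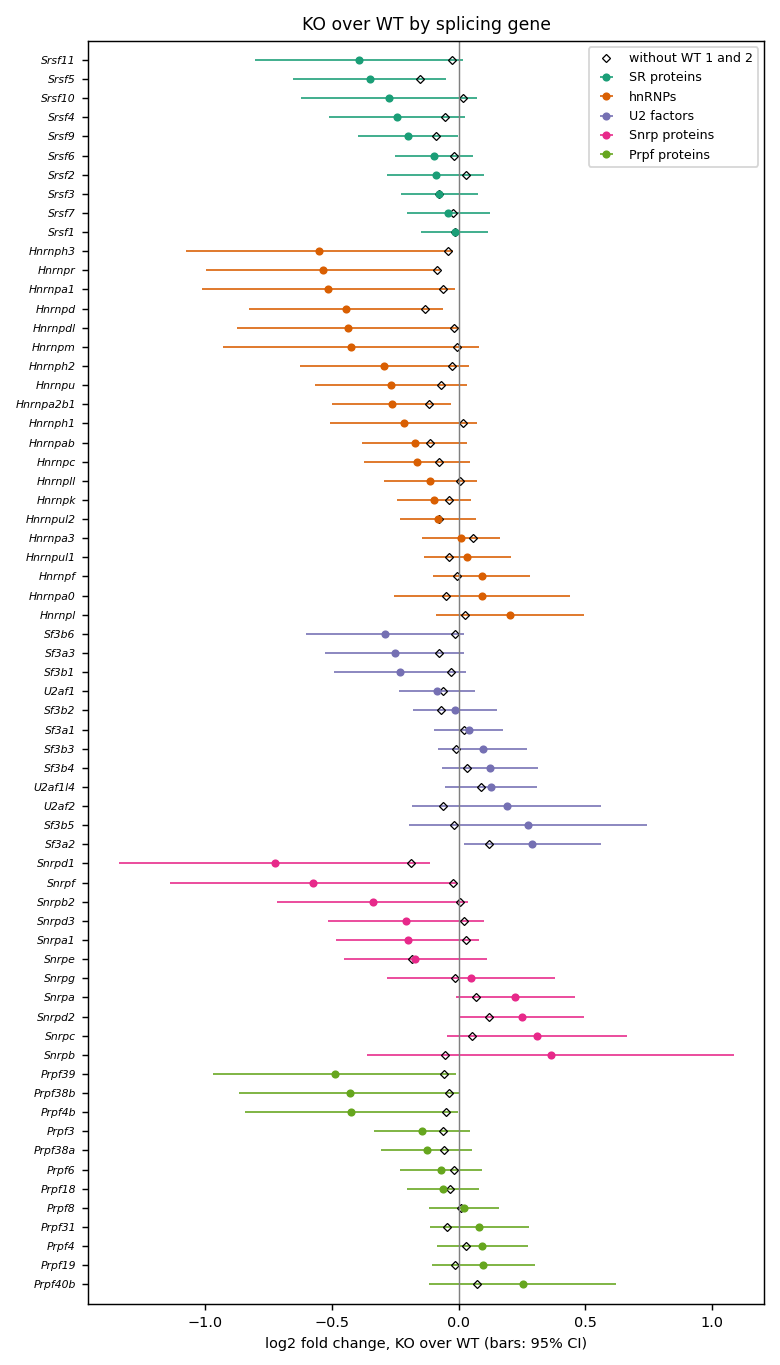
Filled points give the log2 fold change of KO-labelled over wild-type libraries for 65 of the splicing genes, with bars for the 95% CI from edgeR, and open diamonds give the same without wild-type replicates 1 and 2. The filled points run from -0.72 to 0.36 and the diamonds from -0.19 to 0.12.

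SR protein genes were lower under the KO label in 10 of 10 members, with a median log2 fold change of -0.15, and 0 passed the test. Without wild-type replicates 1 and 2, Srsf2 and Srsf10 were higher instead, and an adjustment for transcript GC content, chosen once the data had been seen, put Srsf1, Srsf3, Srsf6 and Srsf7 on the higher side. Srsf5, an SR protein whose own transcript is spliced in a regulated way, was the most abundant of them per length, at 186 CPM per kilobase in KO-labelled and 237 in wild-type libraries. It had 316.7, 355.7, 263.4 and 293.1 CPM in KO-labelled replicates 1 to 4, against 473.2, 409.9, 349.5 and 333.9 CPM in wild type. KO-labelled replicate 2 lay above both wild-type replicates 3 and 4, so the groups overlapped. The log2 fold change was -0.35 (SE 0.13, 95% CI -0.65 to -0.05, edgeR adjusted p = 0.404), and -0.15 without wild-type replicates 1 and 2. Srsf9 had 68.2 ± 5.16 CPM in KO-labelled and 78.3 ± 7.11 CPM in wild-type libraries (SD, n = 4 each), a log2 fold change of -0.20 (SE 0.09). Srsf11, an SR-related protein, had 122 ± 14.7 and 160 ± 41.7 CPM, and its log2 fold change of -0.39 (SE 0.18) became -0.03 without wild-type replicates 1 and 2.

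The best studied SR proteins lay close to 0. Srsf1, the founding splicing factor of the family, had 417.5, 389.8, 399.7 and 406.8 CPM in KO-labelled replicates, against 411.6, 404.3, 397.0 and 417.4 CPM in wild type. The groups covered each other almost fully, and the log2 fold change was -0.01 (SE 0.06, 95% CI -0.15 to 0.12). Srsf2, which binds exonic enhancers, had 301 ± 12.9 and 320 ± 32.1 CPM, a log2 fold change of -0.09 (SE 0.08). Srsf3, which couples splicing to export and polyadenylation, had 289 ± 11.6 and 305 ± 17.1 CPM, a log2 fold change of -0.08 (SE 0.07, 95% CI -0.23 to 0.08). Srsf7, its close relative with a zinc knuckle, had 129 ± 6.58 and 132 ± 8.32 CPM, a log2 fold change of -0.04 (SE 0.07). Srsf4 had 60.99 ± 5.14 and 72.2 ± 11.01 CPM, but 68.8% of its exon bases lie under exons of Gm12992 on the opposite strand, and the sources used here do not state whether counting used strand. The remaining SR genes, Srsf6 and Srsf10, had log2 fold changes of -0.10 and -0.27. Of the 10 CI, 7 lay within a 1.5-fold change (70%, all genes 60.3%).

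Among hnRNP genes, 15 of 20 were lower under the KO label (75%, all genes 50.7%), with a median log2 fold change of -0.19. Of the 20, 5 had an unadjusted p under 0.05 (25%, all genes 6.52%), each with lower values. Hnrnpa2b1 (chromosome 6, 51460435 to 51469894, mm10), an RNA-binding protein that also takes part in RNA transport, was the most abundant of all 66 members per length, at 447 CPM per kilobase in KO-labelled and 536 in wild-type libraries. It had 1137, 1128, 976.9 and 1045 CPM in KO-labelled replicates, against 1507, 1319, 1146 and 1178 CPM in wild type. Every KO-labelled library lay below every wild-type library, with 1137 against 1146 CPM as the nearest pair. The log2 fold change was -0.26 (SE 0.10, 95% CI -0.50 to -0.03, edgeR adjusted p = 0.404) and -0.12 without wild-type replicates 1 and 2.

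Hnrnpd, also known as Auf1, binds AU-rich elements and promotes the decay of inflammatory transcripts. It had 258.0, 304.2, 226.5 and 231.6 CPM in KO-labelled replicates, against 432.9, 396.4, 284.2 and 274.5 CPM in wild type. The groups overlapped through KO-labelled replicate 2, and the log2 fold change was -0.44 (SE 0.17). Hnrnpr, which binds transcripts and their nuclear precursors, had 140.6, 149.5, 122.9 and 133.7 CPM in KO-labelled replicates, against 263.2, 238.7, 144.1 and 145.8 CPM in wild type. Wild-type replicates 3 and 4 lay inside the KO-labelled range. Its log2 fold change of -0.53 (SE 0.20) became -0.08 without wild-type replicates 1 and 2, and that of Hnrnpd -0.13.

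A pair of hnRNP genes with low p share exon bases with another gene. Hnrnpa1, one of the most studied splicing repressors, had 9.77 ± 1.15 CPM in KO-labelled and 14.0 ± 4.51 CPM in wild-type libraries (log2 fold change -0.51, SE 0.22), and at 4.46 and 6.38 CPM per kilobase it was the lowest hnRNP gene. Of its exon bases, 79.1% lie under exons of Gm5643 on the same strand, and Gm5643 itself had 3.33 ± 1.90 and 8.20 ± 4.60 CPM, so its level here is uncertain. Hnrnph3 had 25.1 ± 3.28 and 36.7 ± 12.7 CPM (log2 fold change -0.55, SE 0.23), with 81.4% of its exon bases under exons of Rufy2 on the opposite strand, a gene with 25.1 ± 3.07 and 31.3 ± 8.22 CPM. The part of these neighbours in the differences was not tested.

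Hnrnpu, a nuclear matrix protein, had 923 ± 111 CPM in KO-labelled and 1109 ± 177 CPM in wild-type libraries, and Hnrnpab 804 ± 81.6 and 906 ± 60.1 CPM. Their log2 fold changes were -0.27 (SE 0.13) and -0.17 (SE 0.09). Hnrnpk, a KH-domain protein, had 685 ± 17.2 and 733 ± 36.7 CPM, a log2 fold change of -0.10 (SE 0.06, 95% CI -0.24 to 0.05). Hnrnpll, known in lymphocytes for the switch of CD45 isoforms, had 94.7 ± 4.00 and 102 ± 9.36 CPM, a log2 fold change of -0.11 (SE 0.08) that was 0.01 without wild-type replicates 1 and 2. The remaining 11 hnRNP genes (Hnrnpa0, Hnrnpa3, Hnrnpc, Hnrnpdl, Hnrnpf, Hnrnph1, Hnrnph2, Hnrnpl, Hnrnpm, Hnrnpul1 and Hnrnpul2) had log2 fold changes from -0.43 in Hnrnpdl to 0.20 in Hnrnpl, 6 lower and 5 higher, with unadjusted edgeR p of at least 0.0521. Of the transcripts' 50-base words, the share that also occurs in other annotated genes was 67.3% in Hnrnpf, 37.8% in Hnrnpk and 29.0% in Hnrnpab. It was 28.8% in Hnrnpm, 28.3% in Hnrnpa1 and 28.2% in Hnrnpa3, so the levels of these 6 may be uncertain. The same holds, at 20% or more shared, for Srsf2 (35.2%), Srsf4 (47.3%), Sf3b4 (51.2%) and Snrpe (20.8%). It also holds for the U2af genes and Snrpf, whose shares are given with them. The words are those of the longest GENCODE transcript, so they need not lie in the exons that were counted.

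**Figure D3:**
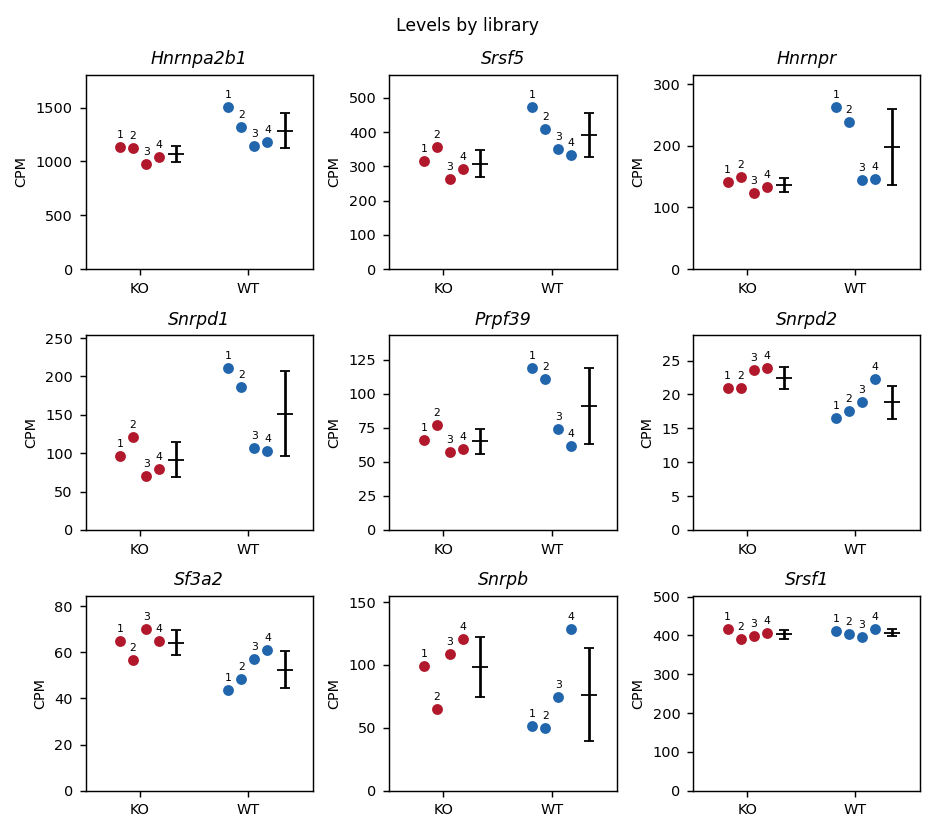
Points give CPM in each library for 9 splicing genes, KO-labelled left and wild type right, numbered by replicate, with the mean and SD of 4 libraries beside them. In Hnrnpr, Snrpd1 and Prpf39 wild-type replicates 1 and 2 lie well above the other 6 libraries, in Sf3a2 and Snrpb they are the lowest, and in Srsf1 all 8 libraries lie between 389.8 and 417.5 CPM.

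The factors that recognise the branch point and the 3′ splice site were split, with 5 lower and 7 higher under the KO label and a median log2 fold change of 0.07. Sf3a2, a subunit of the SF3a complex of the U2 snRNP, had 64.9, 56.8, 70.2 and 64.9 CPM in KO-labelled replicates, against 43.4, 48.3, 57.2 and 60.97 CPM in wild type. KO-labelled replicate 2 was below wild-type replicates 3 and 4, so the groups overlapped. The log2 fold change was 0.29 (SE 0.12, 95% CI 0.02 to 0.56, edgeR adjusted p = 0.404), it was 0.12 without wild-type replicates 1 and 2, and it turned to -0.11 with the GC adjustment. Other subunits were on the opposite side. Sf3a3 had 72.8 ± 8.68 CPM in KO-labelled and 86.6 ± 12.02 CPM in wild-type libraries, and Sf3b6, which contacts the branch-point adenosine, had 46.2 ± 2.14 and 56.4 ± 11.5 CPM. Their log2 fold changes were -0.25 (SE 0.12) and -0.29 (SE 0.14).

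Sf3b1, the largest SF3b subunit and a gene often mutated in myelodysplastic syndrome, had 445.9, 488.8, 424.1 and 424.7 CPM in KO-labelled replicates, against 611.9, 570.8, 471.0 and 439.8 CPM in wild type. The log2 fold change was -0.23 (SE 0.11, 95% CI -0.49 to 0.03), and -0.03 without wild-type replicates 1 and 2. Sf3b2 had 287 ± 15.3 and 289 ± 18.3 CPM, a log2 fold change of -0.01 (SE 0.07) whose sign turned with upper-quartile scaling. U2af1, which reads the AG at the 3′ splice site, had 85.3 ± 4.22 and 90.5 ± 3.89 CPM, a log2 fold change of -0.09 (SE 0.07). U2af2, its partner on the pyrimidine tract, had 209 ± 22.6 and 183 ± 43.8 CPM, a log2 fold change of 0.19 (SE 0.16) that turned to -0.06 without wild-type replicates 1 and 2. Both U2af genes share sequence with other annotated genes (59.4 and 24.7% of 50-base words).

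The other 5 genes of this role, Sf3a1, Sf3b3, Sf3b4, Sf3b5 and U2af1l4, were higher under the KO label, with log2 fold changes from 0.04 to 0.27 and unadjusted edgeR p of at least 0.147. U2af1l4, a short relative of U2af1 and the second member whose groups did not overlap, had 15.1, 14.4, 14.4 and 16.5 CPM in KO-labelled replicates, against 13.5, 13.4, 14.1 and 14.3 CPM in wild type. It was named after its values were seen. The nearest values of the groups were 14.4 and 14.3 CPM, and the log2 fold change was 0.13 (SE 0.08). Of its transcript's 50-base words, 97.2% also occur in Gm49396 or Psenen.

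Snrp genes showed the widest range, from -0.72 for Snrpd1 to 0.36 for Snrpb, with 6 lower and 5 higher under the KO label and a median of -0.17. Snrpd1 (chromosome 18, 10617796 to 10628230, mm10), a protein of the Sm ring, had 96.2, 120.8, 70.0 and 79.9 CPM in KO-labelled replicates, against 211.3, 186.4, 106.5 and 102.6 CPM in wild type. Wild-type replicates 1 and 2 were far above all others, and KO-labelled replicate 2 was above wild-type replicates 3 and 4. The log2 fold change was -0.72 (SE 0.27, 95% CI -1.34 to -0.11, edgeR adjusted p = 0.404), a 1.65-fold difference and the largest of the 66 members, and it was -0.19 without wild-type replicates 1 and 2. Snrpf, another Sm protein, had 38.4, 49.9, 36.9 and 38.9 CPM in KO-labelled replicates, against 82.0, 79.0, 39.3 and 44.1 CPM in wild type, a log2 fold change of -0.57 (SE 0.25) that became -0.02 in the same way. Snrpf shares 89.5% of its longest transcript's 50-base words with other genes, Ccdc38 first among them.

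Sm proteins did not lie on one side. Snrpd2, the partner of Snrpd1 in the ring, had 21.02, 21.02, 23.6 and 23.9 CPM in KO-labelled replicates, against 16.5, 17.6, 18.9 and 22.2 CPM in wild type. Only wild-type replicate 4 reached into the KO-labelled range, and the log2 fold change was 0.25 (SE 0.11, 95% CI 0.01 to 0.50). It was 0.12 without wild-type replicates 1 and 2. Snrpd3 had 82.2 ± 9.86 CPM in KO-labelled and 94.97 ± 16.3 CPM in wild-type libraries, a log2 fold change of -0.21 (SE 0.14). Snrpb, which is shared by nearly all spliceosomal snRNPs and was named after its values were seen, had the widest CI, -0.36 to 1.08. It had 98.8, 64.8, 108.6 and 120.7 CPM in KO-labelled replicates, against 51.8, 49.9, 74.8 and 128.9 CPM in wild type, so the highest value belonged to wild type. Snrpa, a U1 snRNP protein, had 77.8 ± 4.69 and 66.6 ± 8.96 CPM, a log2 fold change of 0.22 (SE 0.10). Of the remaining Snrp genes, Snrpc and Snrpg had higher and Snrpa1, Snrpb2 and Snrpe lower values, and their unadjusted edgeR p was at least 0.0707. Snrpn was not analysed here.

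Prpf genes had 8 lower and 5 higher members, with a median log2 fold change of -0.07, and the size depended on the gene. Prpf39, Prpf4b and Prpf38b were each highest in wild-type replicates 1 and 2. Prpf39, a U1 snRNP-associated factor in yeast, had 65.7, 77.3, 57.3 and 59.7 CPM in KO-labelled replicates, against 119.1, 110.6, 74.0 and 61.5 CPM in wild type, a log2 fold change of -0.49 (SE 0.21). Prpf4b, a kinase that acts during spliceosome assembly, had 146 ± 18.1 and 196 ± 51.9 CPM, and Prpf38b 120.3 ± 15.3 and 162 ± 44.9 CPM. In all 3 the wild-type mean was raised by replicates 1 and 2. Without these libraries the log2 fold changes were -0.06 for Prpf39, -0.05 for Prpf4b and -0.04 for Prpf38b.

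Prpf8, the large protein that holds the active site, had 605.3, 602.9, 592.2 and 566.8 CPM in KO-labelled replicates, against 576.5, 580.3, 612.4 and 564.8 CPM in wild type. The log2 fold change was 0.02 (SE 0.06, 95% CI -0.12 to 0.16), so a difference of 1.5-fold either way lay outside the interval. Prpf19, a ubiquitin ligase of the activating complex, had 109 ± 4.66 and 102 ± 11.7 CPM, a log2 fold change of 0.10 (SE 0.09) that was -0.02 without wild-type replicates 1 and 2. The other 7 Prpf genes (Prpf3, Prpf4, Prpf6, Prpf18, Prpf31, Prpf38a and Prpf40b) had log2 fold changes from -0.15 to 0.25 and unadjusted edgeR p of at least 0.115.

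Splicing genes whose symbols fall outside the rule leaned the same way. Of 114 such genes listed from textbook roles, 113 had a row and 0 passed the edgeR test. Under the KO label 74 were lower (65.5%, all genes 50.7%) and 39 higher, with a median log2 fold change of -0.13 (all genes -0.005). Of the list, 14 had an unadjusted edgeR p under 0.05 (12.4%, all genes 6.52%), and 13 of these were lower. The list was read in the same 8 libraries. Wild-type replicates 1 and 2 were the 2 highest in 56.6% of it (all genes 35.3%) and the 2 lowest in 22.1% (all genes 34.9%). The 4 with the smallest p were Magohb and Magoh, core proteins of the exon junction complex, Zrsr2, which recognises the 3′ splice site of minor introns, and Snrnp48, a protein of the minor spliceosome. Magoh and Magohb are near copies of each other, so reads may be split between them. Magoh had 27.0 ± 1.90 CPM in KO-labelled and 32.6 ± 3.85 CPM in wild-type libraries (log2 fold change -0.27, SE 0.10), and Magohb 8.56 ± 0.77 and 11.4 ± 2.25 CPM (-0.42, SE 0.15). Zrsr2 had 42.6 ± 4.63 and 59.8 ± 15.9 CPM (-0.49, SE 0.18) and Snrnp48 16.7 ± 1.75 and 22.4 ± 4.83 CPM (-0.42, SE 0.16). The edgeR adjusted p was 0.404 for each. Without wild-type replicates 1 and 2 the 4 log2 fold changes were -0.16 for Magoh, -0.19 for Magohb, -0.12 for Zrsr2 and -0.13 for Snrnp48. The lowest log2 fold changes of the list went further towards 0 or past it. They were -0.59 in Rbm25, -0.58 in Luc7l3 and -0.56 in Pnn, and became -0.03, -0.03 and 0.01. These genes were named after their values were seen. The direction counts of the list were not made without those libraries.

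Members varied together across libraries. The first principal component of the members' log2 CPM held 90.7% of their variance. Its scores lay between -1.86 and 0.40 in KO-labelled replicates, against 3.19, 2.60, -0.35 and -1.18 in wild-type replicates 1 to 4. No such component was computed over all genes, so this is not shown to be particular to the members. Wild-type replicates 1 and 2 were the 2 highest libraries in 35.3% of all genes and the 2 lowest in 34.9%. KO-labelled replicate 2, which had the lowest ribosomal RNA percentage of its group, was the KO-labelled library nearest to wild-type replicates 1 and 2. It was the highest KO-labelled library in 32 of the 44 members with lower values and the lowest in 19 of the 22 with higher values. The same counts were not made over all genes. The spread within a group was wider in wild type for 56 members (84.8%, all genes 86.7%), with a median coefficient of variation of 7.60% in KO-labelled and 15.3% in wild-type libraries. The members' share of all gene counts was 1.330, 1.380, 1.235 and 1.261% in KO-labelled replicates, against 1.549, 1.479, 1.360 and 1.326% in wild type. SR genes took 0.200 to 0.219% in KO-labelled and 0.214 to 0.249% in wild-type libraries, and U2 factors 0.168 to 0.173% and 0.166 to 0.174%. With the ribosomal RNA percentage as a covariate, the median log2 fold change was -0.07 and 10 members had an unadjusted p under 0.05 (all genes 7.09%).

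The direction of a member's difference went with the base composition of its transcript. Of the 31 members whose longest GENCODE transcript had under 45% GC, 30 were lower under the KO label. Of the 19 with 50% or more, 15 were higher. The same counts were not made over all genes. The median transcript GC content was 45.7% in the members and 49.3% over all genes. By role it was 42.2% in SR genes, 43.9% in hnRNP genes, 45.8% in Snrp genes, 46.2% in Prpf genes and 51.9% in U2 factors. Across the 66 members, which share libraries and are not independent replicates, Spearman's rho between transcript GC content and the log2 fold change was 0.63, against 0.71 over 11113 genes. Without wild-type replicates 1 and 2 it was 0.24 in the members and 0.09 over all genes. Prpf39, Prpf4b and Prpf38b had 37.6 to 40.8% GC, Snrpd1 had 43.1%, Hnrnpr 41.0% and Sf3a2 62.2%, the highest of the set. Of the 19 members at or below 42% GC, 18 were lower under the KO label, with a median log2 fold change of -0.29. The size varied among them, and Srsf1 and Srsf3, with 40.6 and 40.9% GC, had -0.01 and -0.08. The part of base composition in the differences was not tested. With the GC adjustment 7 members had an unadjusted p under 0.05 (all genes 6.26%), and the median log2 fold change was -0.05.

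**Figure D4:**
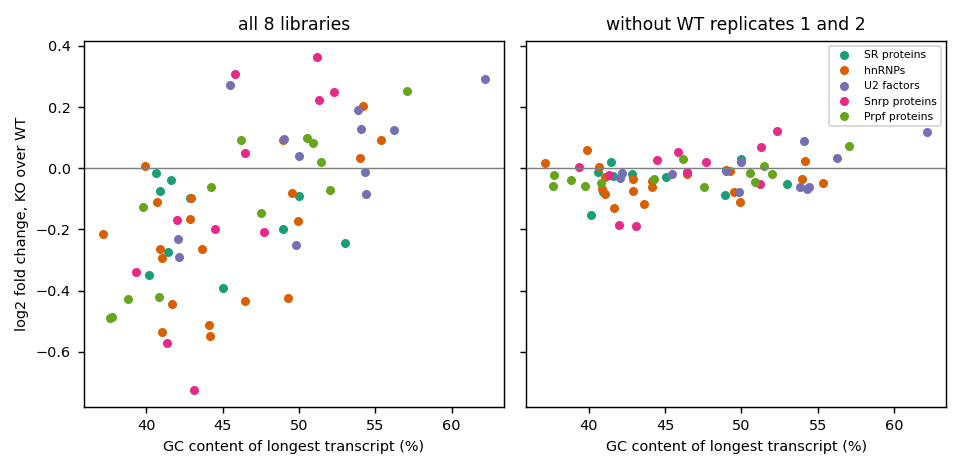
Each point is a splicing gene, placed by the GC content of its longest transcript and by its log2 fold change of KO-labelled over wild-type libraries, with all 8 libraries on the left and without wild-type replicates 1 and 2 on the right. Spearman's rho is 0.63 on the left and 0.24 on the right.

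The deposited mapping statistics gave library-wide shares of junction and intron reads, which did not use the members' counts. Whether these shares follow splicing activity was not tested. Reads across splice junctions made up 41.0, 41.8, 40.4 and 40.9% of high-quality reads in KO-labelled replicates, against 38.1, 37.6, 42.0 and 39.9% in wild type. As mitochondrial reads have no junctions, the share was also taken over the other reads, where it was 41.9 ± 0.86% in KO-labelled and 41.1 ± 1.26% in wild-type libraries (SD, n = 4 each). Reads in introns, on the antisense strand that held most intron and coding reads, made up 10.46 ± 0.22% of non-mitochondrial reads in KO-labelled and 11.2 ± 0.61% in wild-type libraries. Wild-type replicate 3 lay among the KO-labelled values of both. In exact two-sided permutation tests over 70 assignments, whose smallest p is 0.0286, the junction share gave p = 0.371 and the intron share p = 0.0857 (both adjusted over the 4 measures tested, p = 0.371 and 0.305). Before the mitochondrial reads were set aside, the exact permutation p was 0.229 and 0.200, adjusted 0.305 for each.

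**Figure D5:**
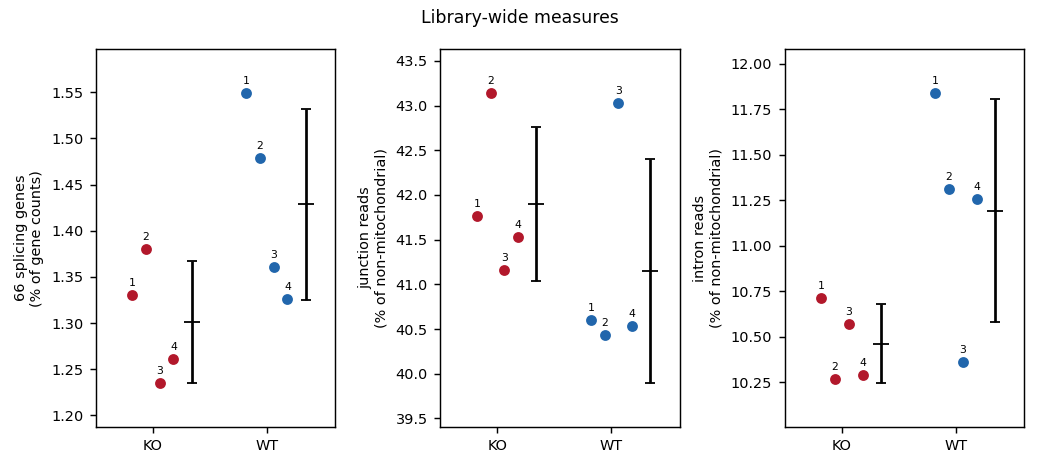
Points give, for each library, the share of gene counts taken by the 66 splicing genes, the junction share and the intron share of non-mitochondrial reads, KO-labelled left and wild type right, with the mean and SD of 4 libraries; the axes do not start at 0. Wild-type replicates 1 and 2 have the highest share of splicing genes, 1.549 and 1.479%, and wild-type replicate 3 lies with the KO-labelled libraries in the other panels.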

How the data were processed

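Raw read counts per gene were deposited by the authors, with STAR as aligner, featureCounts as counter and UCSC mm10 as genome, per the file headers. The sources used here do not state versions, annotation, strand setting or gene filter. Log2 fold changes, p-values and false discovery rates in the deposited table are the authors' own. Mapping statistics came from STAR, bamutils, bowtie2 and featureCounts, per the file headers. No column of per-sample values was left unmapped.

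Groups came from the genotype label, and replicates were numbered in accession order. edgeR 4.0.16 (R 4.3.3; TMM factors, expression filter by group, which removed 0 genes) tested all 11541 genes; a call needed a Benjamini-Hochberg adjusted p under 0.05. SE and 95% CI came from the F statistic. The fit was tested on simulated data. No replicates of a group were duplicates of a library: the chi-square per degree of freedom was 7.25 to 346. CPM are TMM-scaled; CPM per kilobase use the deposited length. Intervals measure library spread only.

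Members, lists and alternatives were chosen with earlier results of these data known. Named genes were, per role, the 4 smallest p and the 2 highest levels per kilobase, plus a fixed list; 1 of them is not reported here. GC content and shared 50-base words came from the longest GENCODE M21 transcript (66 of 66 members, 96.3% of all genes), and promoters from RefSeq. The GC correction (loess, span 0.5) used log2 CPM with a prior count of 2. DESeq2 1.42.0 and limma 3.58.1 (voom) were alternatives.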

Additional observations from a re-analysis of the deposited data

Results flagged for a closer look

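Among 80 groups of 4 libraries examined for a single distant value, 2 were flagged, where chance gives about 1 in 20. Snrpf in the KO-labelled libraries had its highest value, 49.9 CPM, in replicate 2, apart from 36.9 to 38.9 CPM in the other replicates. The junction share of non-mitochondrial reads in wild type had its highest value, 43.0%, in replicate 3, apart from 40.4 to 40.6% in the others.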

How the results depend on the processing

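The number of members called stayed at 0 under every alternative run, and 0 genes of the whole table were called except by DESeq2, which called 1 that is not a member (752 genes had an unadjusted edgeR p under 0.05 and 1178 by DESeq2). The median log2 fold change of the members stayed negative throughout, from -0.14 to -0.08 when 1 library was left out. The count of 13 members at an unadjusted p under 0.05 was 7 with limma-voom, 7 with the GC correction, 0 without wild-type replicates 1 and 2, and from 0 to 37 when 1 library was left out. Of the named members, 12 changed sign somewhere. Correcting for GC content gave log2 values of 0.079 for Hnrnpk, 0.12 for Hnrnpll, -0.058 for Prpf8, -0.11 for Sf3a2, 0.20 for Srsf1, 0.13 for Srsf3 and 0.16 for Srsf7. Without wild-type replicates 1 and 2 they were 0.0052 for Hnrnpll, -0.016 for Prpf19, 0.020 for Snrpd3, 0.029 for Srsf2 and -0.060 for U2af2. With upper-quartile factors they were 0.022 for Sf3b2 and 0.023 for Srsf1. Leaving out 1 library gave -0.045 to 0.028 for Sf3b2 and -0.031 to 0.0015 for Srsf1. The cause of these turns was not tested. RLE factors, both other filters and the ribosomal RNA covariate turned no sign. No paired analysis was possible because the labels give no replicate number that the groups share. There were 4 libraries a group. Wild-type replicates 1 and 2 were the 2 highest of the 8 libraries in 36 of 66 members and the 2 lowest in 15. Replicate 4 also added to the wild-type spread, as in Snrpb at 128.9 CPM, against 49.9 to 74.8 CPM in the other wild-type replicates. A difference smaller than the reach of its interval to either side cannot be told from no difference.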
